A study of Homo sapiens with 12 samples.

Results

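NMUR1, NUP210L and HES7 are 3 protein-coding genes that were almost silent in MOLT4 cells given vehicle and stood at high log2 fold changes after 6 h of compound 955 or of SNS-032. They were taken by gene ID from a deposited table of 5759 genes, of which 5270 are protein-coding, and all 3 IDs were found. They had been chosen by their average level and their log2 fold changes in the 3 comparisons of that table, so the levels and fold changes against DMSO below describe the choice and are not tested. MOLT4 is an established human T lymphoblast line from an acute lymphoblastic leukaemia, labelled as wild type. The study has 12 samples, 3 in each of 4 groups. Cells received DMSO (6 h), 0.1 µM of compound 955 (either 1 h or 6 h) or 1 µM of SNS-032 (6 h). SNS-032 inhibits the transcription kinase CDK9 and related cyclin-dependent kinases, and 955 carries it as its target-binding part, joined to piperlongumine in a series of conjugates that induce degradation of proteins. Vehicle was collected at 6 h alone, so treatment and time in culture cannot be told apart in the comparison of 955 at 1 h. The compounds were given at different doses, so their values are set side by side and no comparison between them is made. Nothing in the labels says whether the 3 samples of a group came from separate cultures, so p-values and FDR measure only the spread between these samples.

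The products of the 3 genes act in different places. NMUR1 is a G protein-coupled receptor for the peptides neuromedin U and neuromedin S; it couples to Gq, which activates phospholipase C and releases calcium, and it is best known from the gut, sensory neurons and type 2 innate lymphoid cells. NUP210L is a relative of NUP210, a membrane-anchored protein of the nuclear pore, and is known mainly from the testis. HES7 is a basic helix-loop-helix repressor of the HES family; in the presomitic mesoderm it is switched on by Notch signalling, represses its own gene and so oscillates with the segmentation clock.

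All 3 genes lie on the minus strand in GENCODE release 29, and positions below are those of RefSeq on GRCh38.p14, the assembly whose UCSC name, hg38, the submitters' processing notes give. NMUR1 spans 11991 bases at chr2:231518455-231530445. NUP210L spans 162427 bases at chr1:153992690-154155116, and HES7 spans 6043 bases at chr17:8120592-8126634. Of these genes, 2 had an entry in the RefSeq table of sequences around transcript starts (GRCh38.p14), NUP210L and HES7. HES7 had 1 start there, and for NUP210L the first of 2 was used. The 2 sequences are shown because the stretch before the start is what the members could share apart from their values. Each is given 5′ to 3′ on the gene's strand and includes the first 30 bases of the transcript. That of HES7 (chr17:8124077-8124356) begins 250 bases before a start that lies 2528 bases inside its RefSeq span, and that of NUP210L (chr1:154155087-154155307) begins where the neighbouring gene TPM3 ends. Capitals mark matches to 7 motifs.
NUP210L: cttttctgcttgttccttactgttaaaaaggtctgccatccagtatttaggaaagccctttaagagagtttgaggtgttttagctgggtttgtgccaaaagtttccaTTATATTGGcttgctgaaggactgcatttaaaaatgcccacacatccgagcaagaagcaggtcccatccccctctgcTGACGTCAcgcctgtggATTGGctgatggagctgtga
HES7: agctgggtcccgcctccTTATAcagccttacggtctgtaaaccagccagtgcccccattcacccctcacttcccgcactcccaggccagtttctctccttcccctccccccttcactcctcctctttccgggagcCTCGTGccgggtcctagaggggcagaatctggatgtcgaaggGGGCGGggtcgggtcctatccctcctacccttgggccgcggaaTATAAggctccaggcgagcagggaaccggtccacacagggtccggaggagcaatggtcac

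The motifs were searched on both strands in the 280-base window of every start in that table (35116 windows, many genes having several). They were the cAMP response element TGACGTCA, the TATA motif TATAA, the CCAAT box, the GC box GGGCGG, the E-box CACGTG, the N-box CACNAG that HES proteins bind, and GTGGGAA, which the Notch effector RBPJ binds. No motif match overlapped another apart from the pair described for NUP210L. In NUP210L, TGACGTCA ended on the first transcribed base, and 1.85% of all windows hold it. The gene also had CCAAT on the reverse strand at 2 places and TATAA on the reverse strand overlapping the first of these. In HES7, TATAA lay at positions -30 to -26 on the forward strand, counting the first transcribed base as 0, and a second copy stood far upstream on the reverse strand. A GC box and an N-box were also present in HES7. TATAA occurs in 19.9% of all windows, CCAAT in 33.6%, the GC box in 44.1% and the N-box in 35.8%. TATAA was thus the only one of the 7 motifs found in both windows. CACGTG and GTGGGAA were not among the letters of either window. Base composition also differed: the NUP210L window was 42.1% G and C with 3 CpG, that of HES7 63.2% with 14 CpG, and the median of all windows was 58.2% with 13. A match describes letters and is not a binding site.

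In the table as a whole, each gene has for every treated group a log fold change against DMSO, read as log2, with an F statistic, a p-value and an FDR, and 1 average level over all samples (log2 CPM, counts scaled to the library total). Counts per sample were not used here, so sequencing depth is unknown, values of single samples cannot be shown, and precision is given by a standard error implied by the fold change and F. The T-cell identity of the cells was checked on 17 marker genes fixed for it. Of these, 6 were listed (CD2, CD3G, CD4, CD7, CD1E and BCL11B), at average levels of 4.75 (CD2) to 8.29 (BCL11B) log2 CPM in the authors' deposited table. The lowest of the 3 FDR values was under 0.05 for all 5759 listed genes, so each share is one of genes that had already passed somewhere, and genes not listed were not analysed here.

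The average levels of the members were low. In the authors' deposited table NMUR1 was at 2.03 log2 CPM, HES7 at 1.79 and NUP210L at 0.23. Only 15.3% of the listed protein-coding genes were at or below NMUR1, 12.8% at or below HES7 and 1.46% at or below NUP210L.

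These averages were split into a level per group by solving the average and the 3 fold changes together, which assumes that the average is the log of the mean over the 4 equal groups. NMUR1 came to 0.0178 CPM with DMSO, 0.0847 CPM after 1 h of 955, 7.73 CPM after 6 h of 955 and 8.53 CPM with SNS-032. Its reads were therefore almost all in the 2 groups treated for 6 h, which held 47.2% (955) and 52.1% (SNS-032) of the sum over groups. HES7 came to 0.061 CPM with DMSO, 0.125 CPM after 1 h of 955, 5.53 CPM after 6 h of 955 and 8.13 CPM with SNS-032. As for NMUR1, almost all of its sum was in these groups, with 39.9% after 6 h of 955 and 58.7% with SNS-032. NUP210L came to 0.0182 CPM with DMSO, 0.571 CPM after 1 h of 955, 3.51 CPM after 6 h of 955 and 0.596 CPM with SNS-032. It was the member with 74.7% of its sum in a single group, 955 at 6 h. In DMSO, NMUR1 had the lowest derived level of the 5270 listed protein-coding genes, NUP210L the next and HES7 the fifth lowest. These ranks rest on that assumption and are worked out from the values by which the members were chosen. Genes that were not listed are not ranked. With the average read as the mean of the groups' log CPM, NUP210L (0.0556 CPM) was below NMUR1 (0.13 CPM) in DMSO.

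**Figure D1:**
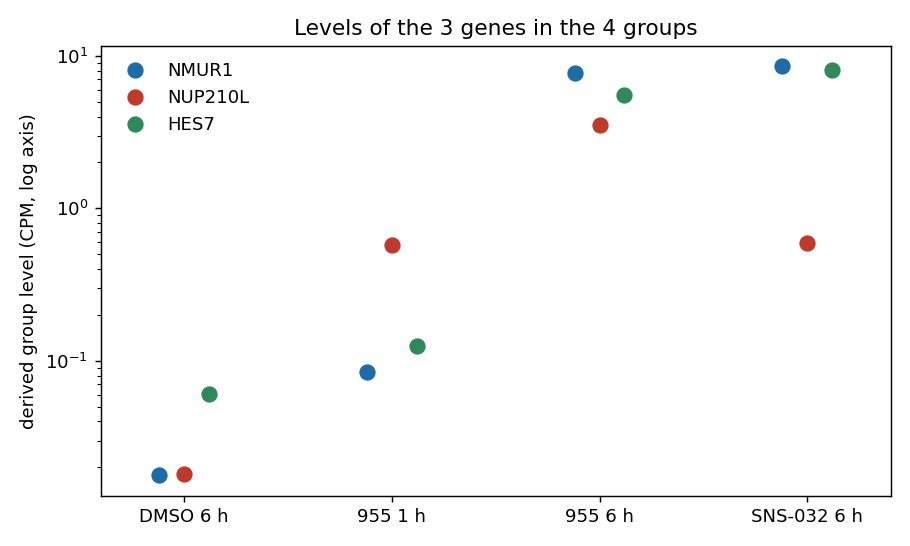
Derived level of each gene (CPM, log axis) in the 4 groups, 1 point per gene and group with no error because counts per sample were not used. NMUR1 and HES7 are under 0.2 CPM with DMSO and after 1 h of 955 and above 5 CPM in both groups treated for 6 h, while NUP210L is at 0.571 CPM after 1 h of 955 and 0.596 CPM with SNS-032.

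A low reference point in the same table is a gene listed as equal in 2 groups. The small nucleolar RNA SNORD3B-1 is listed in the authors' deposited table with a log2 fold change of 0 and a p-value of 1 at 1 h, and its derived DMSO level of 0.00337 CPM was the lowest of all listed genes. The DMSO levels of NMUR1 and NUP210L were 5.27 and 5.40 times that level, and that of HES7 was 18.1 times it. The rank of SNORD3B-1 and these ratios rest on the same reading of the average as the group levels. A fold change against so low a level depends on the small count that a fit adds to avoid a division by 0, which is not given in the sources used here. The log2 fold changes below are therefore sizes under the authors' fit and not bounds.

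Between genes, levels compare only per length. Divided by the longest GENCODE transcript (3298 bases for NMUR1, 5889 for NUP210L and 1674 for HES7), the level after 6 h of 955 was 3.30 CPM per kb for HES7, 2.34 for NMUR1 and 0.595 for NUP210L. With SNS-032 these values were 4.85, 2.59 and 0.101 CPM per kb in the same order. NUP210L was the lowest per length in both groups. With the average read as the mean of the groups' log CPM, the order of HES7 and NMUR1 after 6 h of 955 turned, to 14.9 and 17.1 CPM per kb, while with SNS-032 HES7 stayed the higher at 22.0 against 18.9.

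In the authors' deposited table NMUR1, the neuromedin receptor, had a log2 fold change of 8.77 for 955 at 6 h, with an implied standard error of 0.77 and an FDR of 2.45e-08. With SNS-032 the authors' deposited table gives 8.91, with an implied standard error of 0.77 and an FDR of 1.74e-08. At 1 h the authors' deposited table gives 2.25 with a standard error of 1.09, and its FDR of 0.413 was above the threshold. Its 95% intervals against DMSO were -0.02 to 4.53 at 1 h and 7.15 to 10.4 at 6 h of 955. Among protein-coding genes NMUR1 held first place at 6 h with each compound.

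NUP210L, the nuclear pore relative, was at 4.97 at 1 h of 955 by the authors' deposited table, with an implied standard error of 0.88 and an FDR of 0.000992. No listed protein-coding gene had a larger log2 fold change at 1 h. After 6 h of 955 it was at 7.59 with a standard error of 0.89 and an FDR of 2.31e-07 in the authors' deposited table. With SNS-032 at 6 h it was at 5.03, with a standard error of 0.89 and an FDR of 6.45e-05 in the authors' deposited table. Its 95% intervals against DMSO ran from 3.15 to 6.79 at 1 h of 955, from 5.75 to 9.43 at 6 h of 955 and from 3.20 to 6.87 for SNS-032. These comparisons share the DMSO samples, and 1 h was not tested against 6 h. NUP210L ranked 2nd among protein-coding genes after 6 h of 955 and 13th with SNS-032.

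HES7, the segmentation clock repressor, was at 6.50 for 955 at 6 h by the authors' deposited table, with an implied standard error of 0.71 and an FDR of 6.25e-07. With SNS-032 it was at 7.06 with a standard error of 0.72 and an FDR of 2.25e-07 in the authors' deposited table. After 1 h of 955 the authors' deposited table gives 1.04 with a standard error of 0.85 and an FDR of 0.81. Its intervals against DMSO were -0.75 to 2.82 at 1 h and 5.01 to 7.99 at 6 h of 955. HES7 ranked 4th among protein-coding genes after 6 h of 955 and 2nd with SNS-032.

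**Figure D2:**
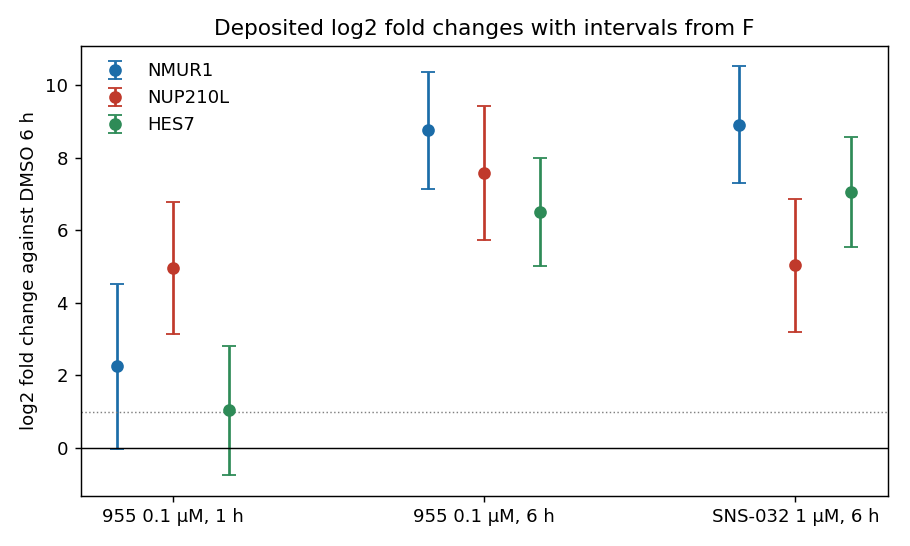
Log2 fold change of each gene against DMSO for 6 h in the 3 treated groups, as the authors deposited it. Bars are approximate 95% intervals from the implied standard error. The solid line is 0 and the dotted line the threshold of 1. At 1 h the interval of NUP210L (3.15 to 6.79) lies above 0, while those of NMUR1 and HES7 include it.

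A gene counted as past the threshold at a deposited FDR under 0.05 together with a log2 fold change of 1 or more in size. After 1 h of 955, 1 of the 3 members was past it (NUP210L), where 0.729% of the listed genes were past it upwards. After 6 h of 955 all 3 members were past it, against 35.2% of the listed genes, and with SNS-032 all 3 against 37.8%. Downwards, the shares of listed genes past it were 7.71%, 50.1% and 52.5% in the same order. Since the members were taken for these rises, nothing is read from the difference. Among the 808 protein-coding genes at or below the average level of NMUR1, the shares past the threshold upwards were 0.248% (2 genes) at 1 h, 49.9% after 6 h of 955 and 50.7% with SNS-032. The median log2 fold change of these low genes was 1.21 after 6 h of 955, where that of all listed genes was -1.03. With SNS-032 the medians were 1.25 and -1.07. These shares and medians cover only genes that the table lists, all of which had already passed somewhere. They therefore do not describe low genes in general, and how far that selection shaped them was not tested. The implied standard errors of the members, 0.71 to 1.09, were above the median of the low genes, which was 0.49 at 1 h and 0.50 in both comparisons at 6 h.

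**Figure D3:**
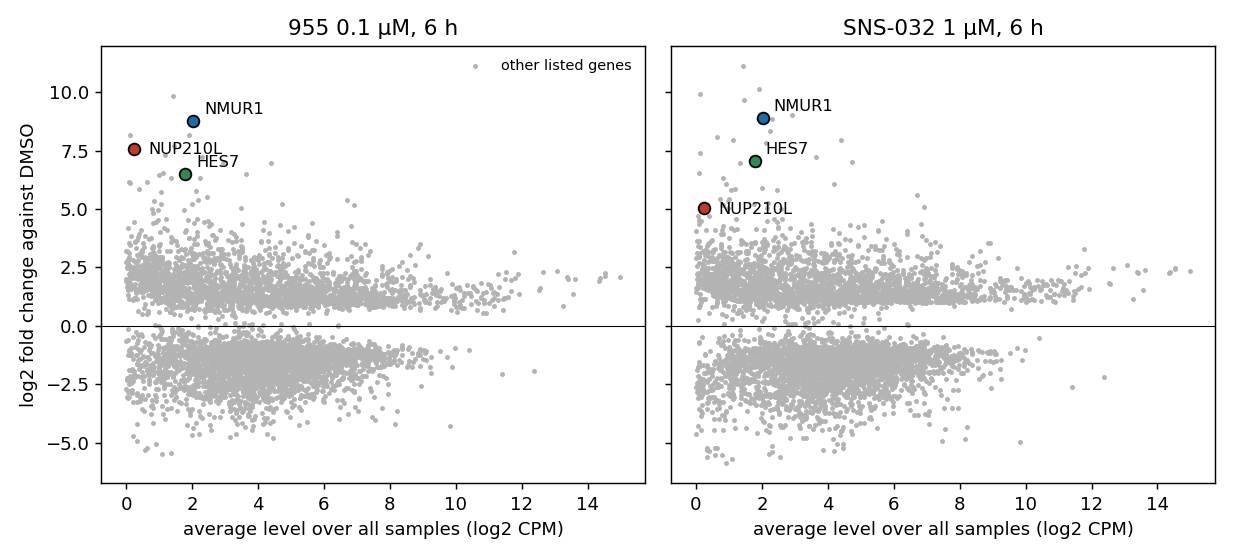
Log2 fold change against DMSO (vertical) by average level over all samples in log2 CPM (horizontal) for the 5759 listed genes after 6 h of 955 (left) and of SNS-032 (right), with the 3 genes in colour. They sit at the low end of the average level, and NUP210L is at 7.59 in the left panel and 5.03 in the right.

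The deposited F and p-values also give the denominator degrees of freedom of each gene's test. In count models these can be lower for a gene with all counts at 0 in some group, but counts per sample were not used here. NUP210L had 23.3, the most common value, shared by 4157 genes to within 0.05. NMUR1 had 18.3 and HES7 17.5, and 17.1% and 16% of the listed genes were lower than these. SNORD3B-1, with its equal levels in DMSO and at 1 h, had 19.3. The lowest value of all listed genes was 8.23. Why NMUR1 and HES7 were below the most common value was not tested.

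Position was not used to choose the genes, and their neighbours were examined next. Of the 12 nearest annotated genes, 2 on each side of each member, 1 was listed. It was RPS27, a ribosomal protein gene on the opposite strand, whose end lies 534 bases from the end of NUP210L. In the authors' deposited table RPS27 had log2 fold changes of 1.42 for 955 at 6 h (FDR 1.89e-10) and 1.80 for SNS-032 (FDR 3.66e-12), which became -0.65 and -0.55 when scaled on the 13 mitochondrially encoded mRNAs. On the other side, TPM3, a tropomyosin gene on the same strand as NUP210L, ends 191 bases before NUP210L begins, and it was not listed. NMUR1 has the lncRNA genes LINC00471 and LOC105376787 as its nearest neighbours, 4077 and 1724 bases away, neither of them listed.

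HES7 lies among tRNA genes. The nearest 2 on each side are TRL-TAG1-1, TRQ-CTG1-5, TRS-CGA1-1 and TRT-AGT5-1, and a further 2, TRR-TCT2-1 and TRG-GCC2-6, lie inside its RefSeq span. TRR-TCT2-1 (chr17:8120925-8121012) falls within the last exon of HES7, in its 3′ UTR in GENCODE release 29. The strand used in counting is not given in the sources used here, so reads of the 2 genes cannot be told apart. None of these 6 tRNA genes was listed. Among all listed genes, 35.2% (955) and 37.8% (SNS-032) were past the threshold upwards at 6 h. The 4 nuclear tRNA genes that were listed, TRF-GAA1-6, TRR-TCG2-1, TRA-TGC4-1 and TRK-TTT3-1, were all past it upwards with both compounds. The authors' deposited table has them, as log2 fold changes, at 6.18, 5.36, 4.58 and 4.46 for 955 at 6 h and at 6.54, 5.17, 4.56 and 5.04 for SNS-032. At 1 h of 955, TRA-TGC4-1 was past the threshold in the opposite direction, at -5.81 with an FDR of 0.00184, and the other 3 were not past it. The part of tRNA reads in the value of HES7 was not tested. NUP210L contains 5 other annotated genes, among them copies of the ribosomal protein genes RPL34 and RPS7, none of which overlaps its exons or was listed, and NMUR1 contains none.

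Further out, the listed genes within 300 kb were examined in the same way. Around NMUR1, 3 of 29 annotated genes were listed, and all 3 were past the threshold downwards with both compounds at 6 h, as were 50.1% (955) and 52.5% (SNS-032) of all listed genes. After centring on the median of the listed genes, 0 of these 3 were past it with either compound. One of them is NCL, the nucleolar protein nucleolin, which the authors' deposited table gives at -1.77 for 955 and -1.87 for SNS-032. Around NUP210L, 4 of 46 were listed, with log2 fold changes from -1.35 to 1.42 after 6 h of 955 and from -1.37 to 1.80 with SNS-032. Around HES7, 8 of 65 were listed, from -2.92 (BORCS6, a lysosome positioning factor) to 2.65 (TMEM88, a membrane protein of Wnt signalling) after 6 h of 955. With SNS-032 those 2 genes were again the lowest and the highest, at -3.06 and 2.76. TMEM88 was no longer past the threshold after mitochondrial scaling, at 0.58 and 0.41, and under that scaling 0 of the 15 listed genes around the 3 members were past it upwards.

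**Figure D4:**
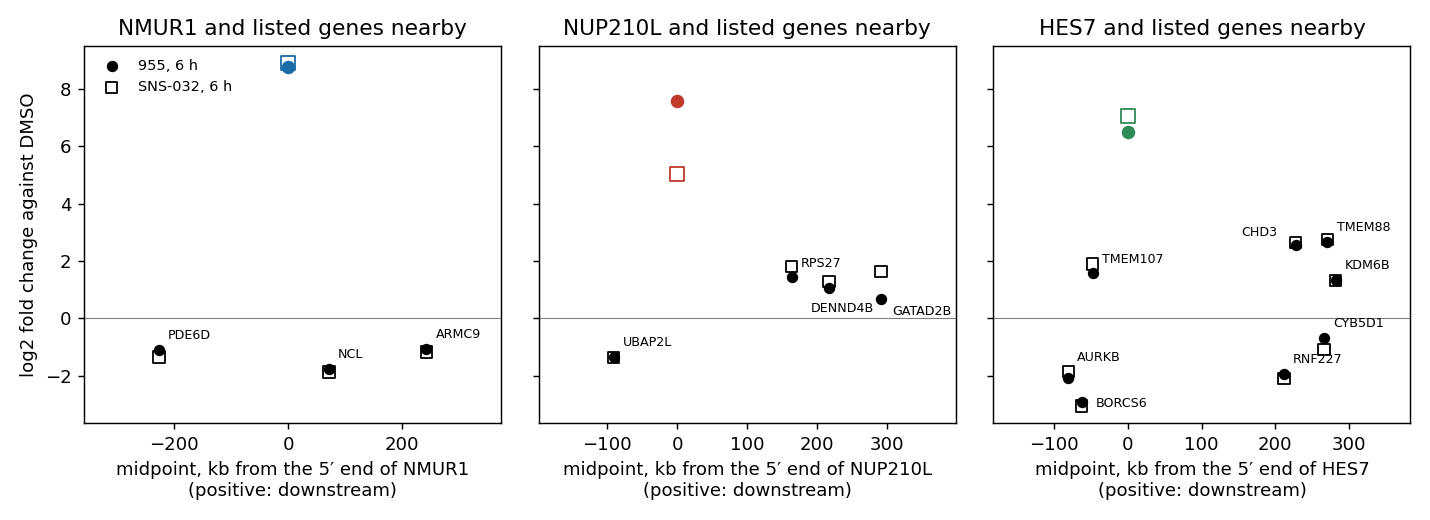
Log2 fold change against DMSO after 6 h of 955 (filled circles) and SNS-032 (open squares) of each member (colour, at 0) and of the listed genes within 300 kb of it (black), by distance of the gene's midpoint from the 5′ end of the member's RefSeq span in kb. The 3 listed genes around NMUR1 are below 0, and none around any member is above 2.76.

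Genes of the neuromedin pathway were mostly not listed: of 14 peptide and receptor genes, NMUR1 and NMU were. NMU, which encodes neuromedin U, the ligand of NMUR1, had an average level of 0.18 log2 CPM and fell past the threshold with both compounds. The authors' deposited table gives it a log2 fold change of -2.86 for 955 at 6 h (FDR 0.00707) and -2.39 for SNS-032 (FDR 0.0211). The call for SNS-032 was lost when fold changes were centred on the median of the listed genes. Ligand and receptor stood in opposite directions at 6 h. Of 19 genes of Gq signalling, downstream of the receptor, 8 were listed. After 6 h of 955, 4 were past the threshold upwards and 3 downwards, against 35.2% and 50.1% of all listed genes. With SNS-032 these counts were 5 and 2, against 37.8% and 52.5%. With each compound they became 0 and 4 after mitochondrial scaling, and 5 and 1 after centring. The highest was PLCB2, a phospholipase C, at 1.80 and 1.83 (-0.27 and -0.52 after mitochondrial scaling), and the lowest was RGS2, which shortens Gq signalling, at -5.47 and -5.73 in the authors' deposited table.

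Nucleoporins build the nuclear pore. Of 33 nucleoporin genes 20 were listed. After 6 h of 955, 14 of them were past the threshold downwards and 3 upwards, against 50.1% and 35.2% of all listed genes. The list median was -1.23, and that of all listed genes -1.03. With SNS-032, 16 were past the threshold downwards and 3 upwards, against 52.5% and 37.8%. The medians were -1.13 and -1.07. After centring on the median of the listed genes, the counts were 3 upwards and 3 downwards for 955 and 3 and 2 for SNS-032. Besides NUP210L the authors' deposited table has as higher its relative NUP210, at 1.53 and 1.63, and NUP62CL, at 1.39 and 1.15. Under mitochondrial scaling both of these turned negative, and NUP210L alone of the 20 stayed past the threshold upwards, at 5.52 after 6 h of 955 and 2.69 with SNS-032. NUP210L had been chosen for its rises, so its place among the nucleoporins describes that choice. The lowest was NUP37, of the outer ring of the pore, at -2.32 and -2.42. After 1 h of 955, NUP210L was the only listed nucleoporin past the threshold as deposited, with NUP153 close to it at -0.94 (FDR 7.87e-05). Under mitochondrial scaling 4 others were past it downwards at 1 h.

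Of 17 HES and HEY repressors and their TLE corepressors, 5 were listed. In the authors' deposited table HES6, a relative of HES7 that opposes HES1, was past the threshold upwards at 1.70 for 955 at 6 h and 1.29 for SNS-032, but negative after mitochondrial scaling. HES1, the Notch target most used as its readout, was at -1.78 with an FDR of 0.092 after 6 h of 955, and at -2.22 with an FDR of 0.0395 with SNS-032. TLE3, a corepressor that HES proteins recruit, was past the threshold downwards with both compounds, at -2.03 and -2.14. After centring, the call of TLE3 for 955 (-0.999, just short of the fold-change threshold) and that of HES1 for SNS-032 (-1.15) were lost. Under mitochondrial scaling both genes were past the threshold downwards in every comparison. In the order 1 h of 955, 6 h of 955 and SNS-032, HES1 was at -1.77, -3.85 and -4.57. TLE3 was at -1.24, -4.10 and -4.49. The authors' deposited table has TLE2 at 1.69 for 955 at 6 h with an FDR of 0.121, and at 2.21 for SNS-032 with an FDR of 0.036; both values turned negative after mitochondrial scaling (-0.38 and -0.13). Of the 5 listed, HES7 had the largest deposited change in either direction in both comparisons at 6 h. It had been chosen for these rises, so nothing is read from its place in the list.

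Of 20 genes of the segmentation clock, 5 were listed, HES7 among them. TBX6, a T-box factor of the presomitic mesoderm, was past the threshold upwards at 2.70 after 6 h of 955 and 2.83 with SNS-032, and at 0.63 and 0.49 after mitochondrial scaling. MESP1, a somite patterning factor, was past it downwards at -3.15 and -2.77 in the authors' deposited table. The clock-linked feedback genes DUSP6 and SPRY2 were past the threshold downwards after 1 h of 955, at -1.64 and -1.62, as were 7.71% of all listed genes. HES7 was not past it there, at 1.04 with an FDR of 0.81. After 6 h of 955, SPRY2 was past it at -1.14 (FDR 0.0437) and DUSP6 was not, at -1.12 (FDR 0.0785). With SNS-032, DUSP6 was past it at -1.56 (FDR 0.013) and SPRY2 was not, at -0.93 (FDR 0.107). The list as a whole therefore held genes in both directions.

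Other cell types in which the members are known were looked for through marker genes. Of 14 testis germ cell markers 1 was listed, SYCP2, at 1.90 in both comparisons at 6 h with an average level of 6.71 log2 CPM, and it turned negative after mitochondrial scaling. Of 8 markers of type 2 innate lymphoid cells 0 were listed, and of 7 presomitic mesoderm markers 1 was, TBX6. The part of other cell types in the members' values was not tested.

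The genes with the most similar profile were found by Euclidean distance over the 3 deposited log2 fold changes, among protein-coding genes, naming 3 for each member. The comparisons share their DMSO samples, so the distances only describe these values. The members had also been chosen by these values, so large rises among their nearest genes follow from that choice. Nearest to HES7 were the histone genes H2AC8 (distance 1.52), H3C8 (1.61) and H2BC26 (1.75). Nearest to NMUR1 was HES7 itself (3.17), followed by the histone genes H3C13 (3.37) and H2AC8 (4.43). Nearest to NUP210L was H3C13 (2.53), followed by DCST2 (4.06), a gene linked to sperm and egg fusion, and H2AC8 (4.09). The authors' deposited table puts H3C13 at 2.60 (1 h of 955), 7.33 (6 h of 955) and 5.87 (SNS-032). At 1 h the 4.97 of NUP210L was followed among protein-coding genes by the 2.60 of H3C13, whose FDR was 0.0636. After 6 h of 955, H2BC8, which follows HES7 in the order of protein-coding genes, was at 6.44, close to the 6.50 of HES7.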

How the data were processed

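The 12 MOLT4 samples were grouped by title. RNeasy Plus Mini columns and a BGI mRNA-Seq kit were used, per the labels' protocols. The submitters' processing notes name hg38 and DESeq2 without saying what each was used for; the aligner, counter, strand use and filters are not given in the sources used here. Per the file headers, the authors deposited, for 3 comparisons against DMSO, log fold changes and an average log CPM (both read as log2), an F statistic (used as a score), a p-value and an FDR. Each deposited p-value and FDR was used as it stands.

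Dividing the size of each log2 fold change by the root of its F gave the implied standard error, with denominator degrees of freedom solved from F and p (1 numerator degree of freedom). It follows the authors' model and is not an SD of replicates. Gene IDs were matched to RefSeq GRCh38.p14 (5727 of 5759). Computation used Python 3.11.15 with scipy 1.17.1, tested on simulated data. Named genes were, by rule, the 3 members, the 2 nearest genes on each side, the 3 most similar protein-coding genes, the listed genes of the fixed lists and the 5 largest rises of low protein-coding genes after 6 h of each compound. Genes inside the members' spans, tRNA genes, genes within 300 kb, SNORD3B-1, the order of all protein-coding genes and the motifs were added after the values were seen. The members and lists were chosen with earlier results of these data known. Rescaled values of genes other than the members, and levels per length under the other reading of the average, were also added after the values were seen.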

Additional observations from a re-analysis of the deposited data

How the results depend on the processing

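All 18 rescaled log2 fold changes of the members kept their direction and their side of the threshold, with Benjamini-Hochberg adjustment over the listed genes. For NMUR1 and HES7 at 1 h, that side was not past it, with 1.58 and 0.36 after mitochondrial scaling. Each rescaling shifts all genes by 1 value, and the members had been chosen for large rises, so their kept calls at 6 h are no test. Scaling on the 13 mitochondrially encoded mRNAs lowered every log2 fold change by 0.67 after 1 h of 955, 2.07 after 6 h of 955 and 2.35 with SNS-032. It left NMUR1 at 6.69 and 6.56, NUP210L at 5.52 and 2.69 and HES7 at 4.43 and 4.71 after 6 h of 955 and of SNS-032. Listed genes past the threshold upwards numbered 42, 2026 and 2175 as deposited (444, 2885 and 3021 downwards), in the order 1 h of 955, 6 h of 955, SNS-032. They numbered 16, 142 and 116 after mitochondrial scaling (1766, 3825 and 4151 downwards) and 12, 712 and 761 at a log2 fold change of 2 or more in size. At an FDR under 0.01 the count at 1 h was 24.

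Group levels depended on how the average is read. Read as the mean of the groups' log CPM, NMUR1 came to 0.13, 0.617, 56.4 and 62.2 CPM in DMSO, 1 h of 955, 6 h of 955 and SNS-032. In the same order NUP210L came to 0.0556, 1.74, 10.7 and 1.82 CPM, and HES7 to 0.276, 0.565, 25.0 and 36.8 CPM. The ratios between groups are the same in both readings by construction. No paired analysis was possible because the table holds comparisons and no values per sample; for the same reason no replicate was left out. Depth, and with it what a level near 0 can resolve, is unknown.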

Other observations

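Other protein-coding genes of low average level also stood at large rises. Leaving the members out, the 5 largest rises after 6 h of 955 among genes at or below the average level of NMUR1 were the histone genes H3C13 (7.33), H2BC8 (6.44), H2AC8 (5.72) and H2BC26 (5.22), and DCST2 (5.85), as log2 fold changes in the authors' deposited table. With SNS-032 they were H2BC26 (5.88), H3C13 (5.87), H2AC8 (5.80), H2BC8 (5.43) and CCNP (5.34), a cyclin-related gene. These genes were past the threshold with both compounds and stayed positive after mitochondrial scaling. Replication-dependent histone genes belong to families of near-identical copies, so how their reads were shared among copies is uncertain. After 1 h of 955, 0 of these 6 genes were past the threshold, and H3C13 came nearest, at 2.60 with an FDR of 0.0636 in the authors' deposited table.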
